A study of Nannochloropsis gaditana with 4 samples.

Results

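Relative transcript quantities of 44 genes were compared between 2 flashing-light cultures of the marine microalga Nannochloropsis gaditana strain CCAP 849/5, given in the deposited tables as SAMPLE 3 and SAMPLE 2. The members were every gene of the normalized table by its symbol, 44 of 44, in 2 of the 4 sample columns, with 3 numbered repeats each. Of these genes, 36 were targets of metabolism and 8 were reference genes. The study grew the alga for 13 days in bubbled flasks under flashing light at 5, 50 or 500 Hz, each with a duty cycle of 0.05 and a flash intensity of 6000 µmol per square metre per second, or under continuous light. Every culture received a time-averaged light of 300 µmol per square metre per second, so the flashing-light cultures shared mean light, duty cycle and flash intensity and differed in frequency. No header of the tables ties SAMPLE 3 or SAMPLE 2 to a frequency, and none is stated here. There was 1 sample for each light condition, RNA was pooled before measurement according to the series' design text, and what the repeats were (separate cultures, separate cDNA or wells of one plate) is not stated in the sources used here. The continuous-light culture is SAMPLE 1, recognised as the divisor of the deposited fold changes, and the remaining flashing-light culture is SAMPLE 4.

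Nannochloropsis carries chlorophyll a but no chlorophyll b, and its light-harvesting antenna binds violaxanthin to violaxanthin-chlorophyll proteins. Violaxanthin is also the substrate of the xanthophyll cycle, in which violaxanthin de-epoxidase converts it to zeaxanthin in strong light and the antenna sheds excess energy as heat. The alga is grown for its oil: acyl chains are built in the plastid by fatty acid synthase, a set of separate enzymes that condense, reduce, dehydrate and reduce again, and are then attached to glycerol-3-phosphate to give membrane lipids and triacylglycerol.

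Each value below is a normalized quantity without a unit, the authors' linear ratio of a gene divided by the signal of the reference genes CYP and PAP1. Each gene has its own scale, set by the highest of its 12 values, so levels of different genes cannot be compared. A change is the mean log2 value of the 3 repeats in SAMPLE 3 minus that in SAMPLE 2, and its error is the propagated SD, in which the SDs of the 2 samples' repeats are combined in quadrature. With 1 sample per condition no test was made, and a gene was counted as changed if it differed by at least 2-fold and by more than 2 propagated SDs, a rule of size. In a bulk culture, less of a transcript in every cell and fewer cells that carry it cannot be told apart.

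By that rule 4 genes were lower in SAMPLE 3 and none was higher. The lower genes were VCP1 of the antenna, VDE2 of the xanthophyll cycle, and MCT and HAD of fatty acid synthesis. They were 9.09% of the 44 genes, against 0.0% for higher genes. Beyond 2 propagated SDs at any size, 12 genes were lower and 3 higher, or 27.3% and 6.82% of the 44. In 15 genes, 34.1%, all repeats of SAMPLE 3 lay below all repeats of SAMPLE 2, and in 5 genes, 11.4%, all lay above. Of the 36 targets, 14 were lower and 4 higher without overlap, and 26 means were lower and 10 higher. The median change of the targets was −0.32 log2, and that of all 44 genes was −0.21.

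**Figure D1:**
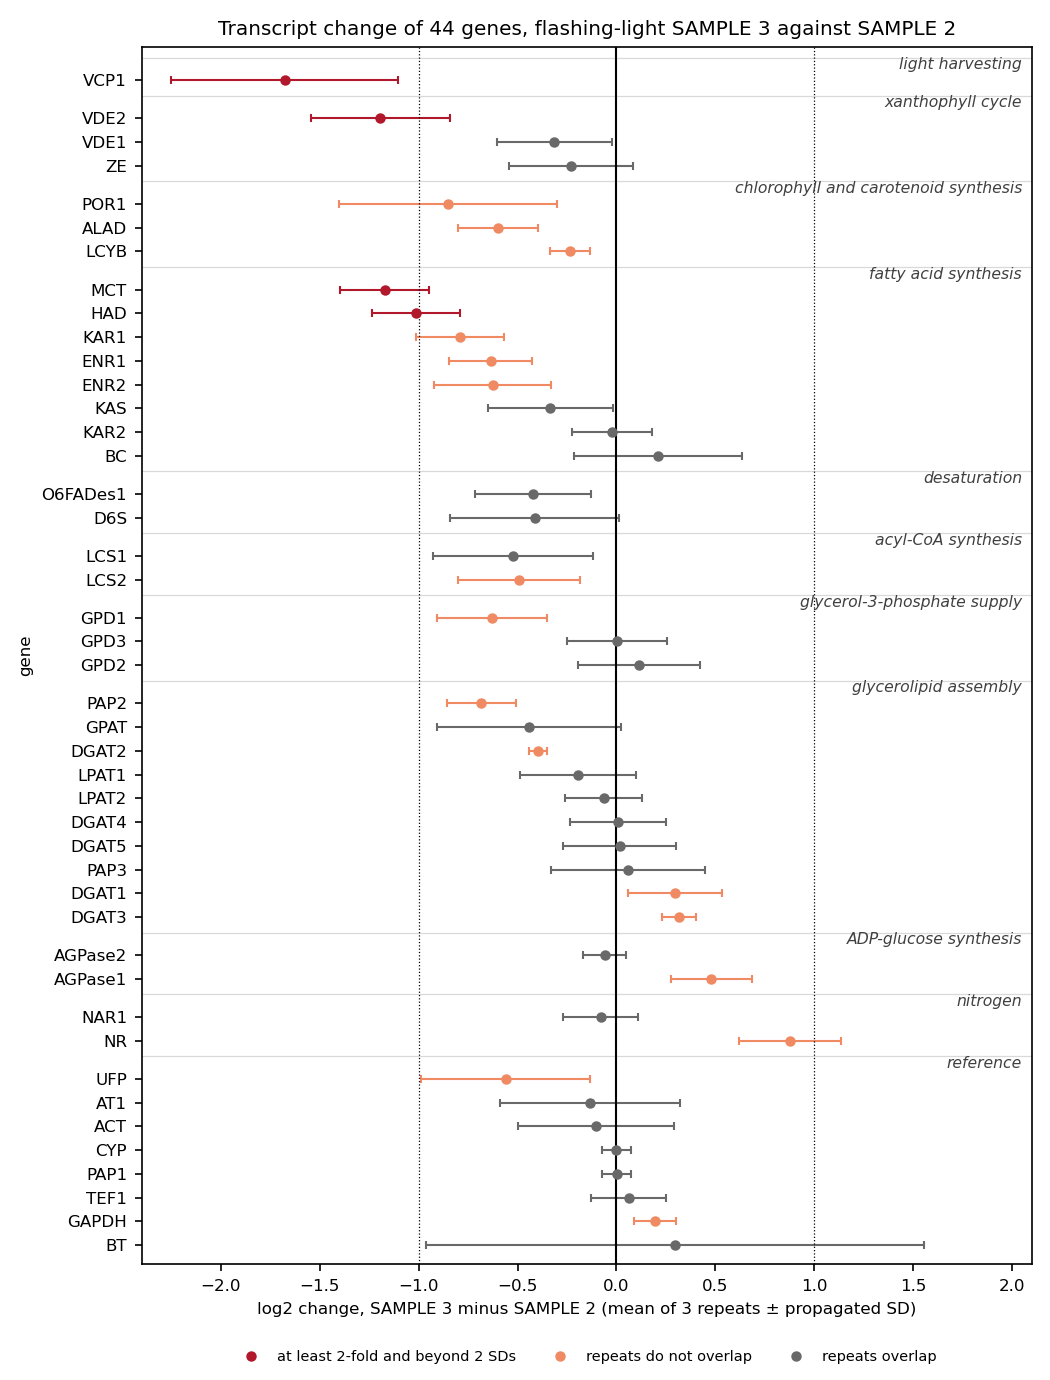
The plot gives the log2 change of each of 44 genes, SAMPLE 3 minus SAMPLE 2 (horizontal axis), as the mean of 3 repeats with the propagated SD as bars, grouped by function. Dotted lines mark 2-fold; VCP1, VDE2, MCT and HAD lie beyond the lower one, NR at 0.88 comes nearest the upper one, and no gene passes the rule upward.

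The reference itself differed between the samples. The normalization factor of CYP (cyclophilin, a protein-folding enzyme) and PAP1 (a phosphatidic acid phosphatase) was 1.22, 1.00 and 0.965 in the repeats of SAMPLE 3, against 0.895, 0.908 and 0.814 in SAMPLE 2. Every factor of SAMPLE 3 was above every factor of SAMPLE 2, by 0.28 ± 0.20 log2 on average. Without any reference the median target stood at −0.04, and the same shift applies to every gene. Among the other reference genes, the ubiquitin family gene UFP had 0.648, 0.487 and 0.798 in SAMPLE 3, against 1.12, 0.878 and 0.821 in SAMPLE 2, a change of −0.56 ± 0.43. GAPDH of glycolysis was at 0.588, 0.573 and 0.520 in SAMPLE 3, against 0.471, 0.498 and 0.500 in SAMPLE 2, at 0.19 ± 0.11. These were the reference genes whose repeats did not overlap, in opposite directions. Actin ACT stood at −0.10 ± 0.40, alpha tubulin AT1 at −0.13 ± 0.45, elongation factor TEF1 at 0.06 ± 0.19 and beta tubulin BT at 0.29 ± 1.26.

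The antenna gene had the largest change of the 44. VCP1, a violaxanthin-chlorophyll protein, had quantities of 0.264, 0.292 and 0.540 in SAMPLE 3, against 1.02, 1.10 and 1.21 in SAMPLE 2. The samples did not overlap, and the highest repeat of SAMPLE 3 was repeat 3. The means were 0.365 ± 0.152 in SAMPLE 3 and 1.11 ± 0.0970 in SAMPLE 2 (SD, n = 3 each), a log2 change of −1.68 ± 0.57. VCP1 fell to 0.313 times its level in SAMPLE 2. It passed the rule in all 24 alternative calculations, though some of them, such as a 1.5-fold threshold, could not end a call. Among the 11 other references −1.12 was the value nearest to 0. After each repeat was centred on its median target, VCP1 was at −1.26 ± 0.48.

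Of the 3 xanthophyll cycle genes, 1 fell. VDE2, a violaxanthin de-epoxidase, was at 0.426, 0.409 and 0.629 in SAMPLE 3, against 1.04, 1.10 and 1.15 in SAMPLE 2. The samples lay apart by 0.72 log2 between their nearest repeats, and the change was −1.19 ± 0.35. The other de-epoxidase gene, VDE1, was at 0.778, 0.625 and 0.903 in SAMPLE 3, against 1.00, 0.973 and 0.866 in SAMPLE 2, and overlapped, at −0.31 ± 0.29. ZE, named in the tables as a zeaxanthin de-epoxidase, overlapped as well, at −0.23 ± 0.31. The list's median was −0.31, close to the −0.32 of all targets, and the change of VDE2 stood outside it.

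All 3 genes of chlorophyll and carotenoid synthesis had lower repeats without overlap, against 34.1% of the 44 genes, and none reached 2-fold. POR1, the light-dependent enzyme that reduces protochlorophyllide, was at 0.533, 0.419 and 0.876 in SAMPLE 3, against 1.12, 1.06 and 0.967 in SAMPLE 2. Its repeat 3 in SAMPLE 3 came close to SAMPLE 2, and the change of −0.85 ± 0.55 was within 2 propagated SDs. POR1 was the nearest gene outside the 2-fold threshold on the lower side, while HAD was the nearest inside. ALAD, of the early steps of tetrapyrrole synthesis, had 0.716, 0.610 and 0.791 in SAMPLE 3, against 1.12, 1.02 and 1.05 in SAMPLE 2, at −0.60 ± 0.20. Lycopene beta cyclase LCYB, which closes the rings of beta-carotene, had 0.819, 0.770 and 0.730 in SAMPLE 3, against 0.882, 0.947 and 0.896 in SAMPLE 2. Its change was small, at −0.23 ± 0.10, and went the other way under 3 of the 11 other references. The list's median was −0.60.

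Fatty acid synthesis, with 8 of the 36 targets, held 5 of the 12 that were lower by more than 2 propagated SDs, a share of 27.3% over the 44 genes. Of its 8 genes 2 fell, against 9.09% of all genes, and 5 had lower repeats without overlap, against 34.1%. The median was −0.63. MCT, which loads malonyl groups onto acyl carrier protein, was at 0.496, 0.402 and 0.534 in SAMPLE 3, against 1.12, 1.01 and 1.08 in SAMPLE 2. The repeats lay apart by 0.92 log2, the widest gap of any gene, and the change was −1.17 ± 0.22. The authors' normalized row for MCT repeats the normalization factor, so MCT was taken as its own deposited ratio divided by that factor. HAD, the dehydratase of the elongation cycle, was at 0.494, 0.461 and 0.595 in SAMPLE 3, against 0.948, 1.10 and 1.07 in SAMPLE 2, at −1.01 ± 0.22. HAD was just past 2-fold, and if each cycle is taken as an exact doubling it was at −0.985, below the threshold. HAD passed the rule in 14 of the 24 alternatives, MCT in 17 and VDE2 in 19. Some of the 24 could not end a call. A 1.5-fold threshold keeps every gene past 2-fold, and MCT as deposited leaves the other genes unchanged. CYP or PAP1 alone, the parts of the main factor, shift each change by only 0.0014 log2. With ACT alone HAD was at −0.91, with AT1 alone at −0.88 and with the 7 reference genes other than PAP1 together at −0.98.

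The genes named for the reductases of the cycle differed in their values. KAR1, a ketoacyl-ACP reductase, was at 0.572, 0.595 and 0.454 in SAMPLE 3, against 0.898, 0.910 and 0.981 in SAMPLE 2, a change of −0.79 ± 0.22. The gene named for the same step, KAR2, overlapped, with 0.701, 0.597 and 0.790 in SAMPLE 3 against 0.697, 0.700 and 0.709 in SAMPLE 2, at −0.02 ± 0.20. The enoyl-ACP reductases, which complete each round of elongation, had like values. ENR1 had 0.557, 0.543 and 0.440 in SAMPLE 3, against 0.733, 0.822 and 0.830 in SAMPLE 2, at −0.64 ± 0.21. ENR2 had 0.641, 0.576 and 0.437 in SAMPLE 3, against 0.820, 0.894 and 0.809 in SAMPLE 2, at −0.63 ± 0.30. In KAR1, ENR1 and ENR2 the lowest repeat of SAMPLE 3 was repeat 3, the one in which VCP1, VDE2 and POR1 were highest. KAS, a ketoacyl-CoA synthase by its name in the tables, was at −0.33 ± 0.32 with overlap. BC, named as the ligase that attaches biotin to acetyl-CoA carboxylase, was the one gene of the list with a higher mean, at 0.21 ± 0.43.

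Desaturases and acyl-CoA synthetases had lower means and did not pass the rule. The omega-6 desaturase O6FADes1 was at 0.446, 0.401 and 0.544 in SAMPLE 3, against 0.538, 0.702 and 0.618 in SAMPLE 2, at −0.42 ± 0.29. D6S, given in the tables as a delta-6 enzyme, was at −0.41 ± 0.43. Repeats of both genes overlapped. The long-chain acyl-CoA synthetases, which activate free fatty acids, were at −0.52 ± 0.41 for LCS1 and −0.49 ± 0.31 for LCS2. LCS2 did not overlap, but its nearest repeats were 0.790 in SAMPLE 3 and 0.793 in SAMPLE 2.

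**Figure D2:**
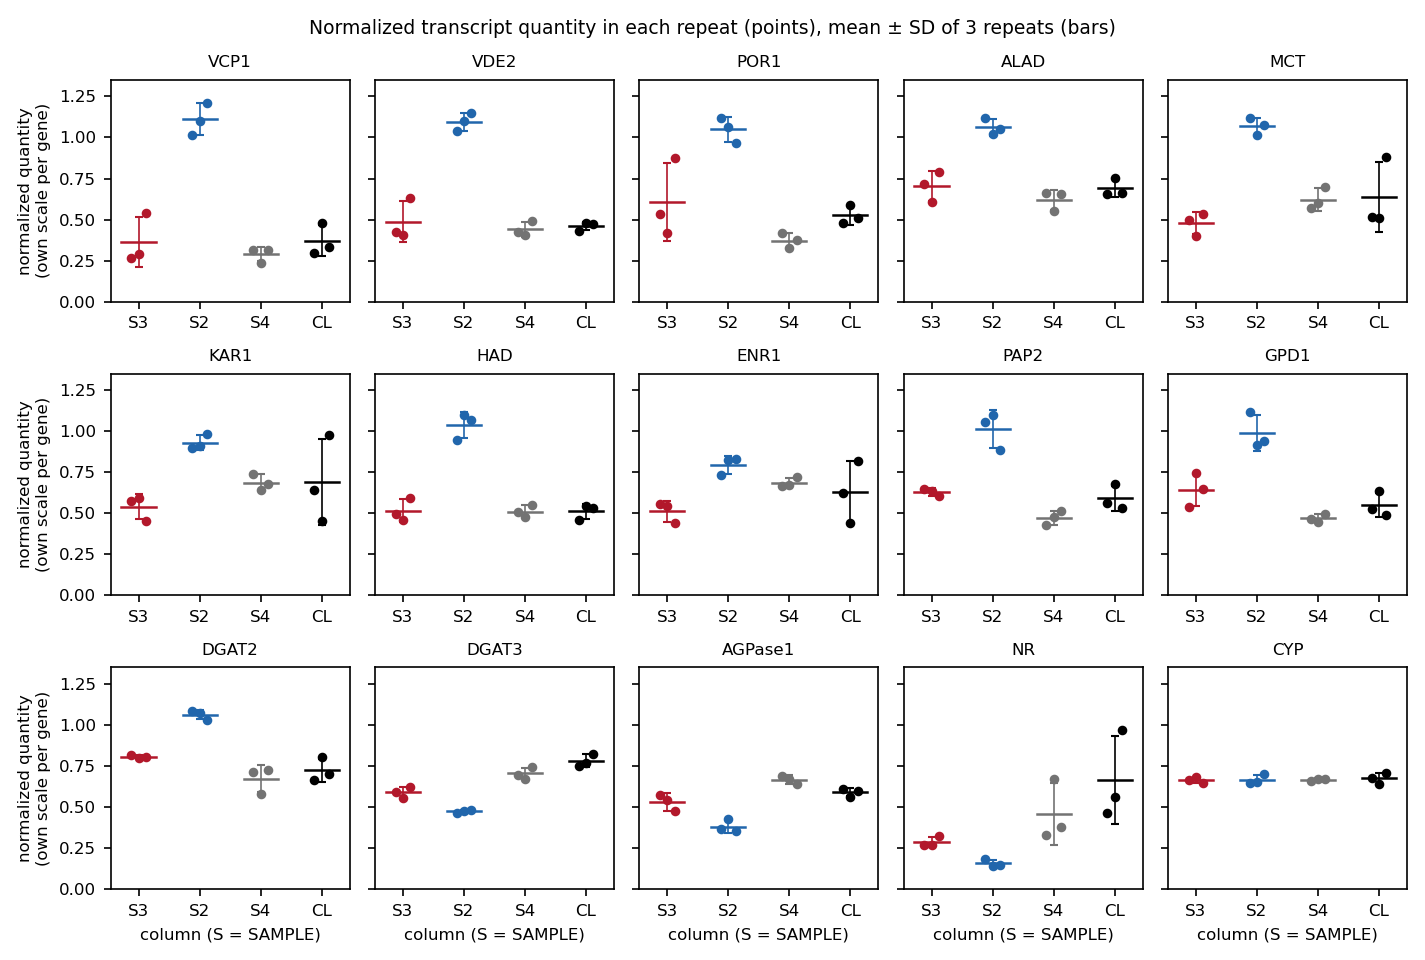
Each panel gives the normalized quantity of a gene on its own scale (vertical axis, no unit) in SAMPLE 3, SAMPLE 2, SAMPLE 4 and continuous light (CL), with points for the 3 repeats and bars for mean ± SD. VCP1, VDE2 and HAD are high in SAMPLE 2 and alike in the other columns, and DGAT3, AGPase1 and NR are lowest in SAMPLE 2. CYP is level, but it is part of the normalization factor, which holds it so. Its ratios before normalization were 0.811, 0.687 and 0.625 in SAMPLE 3, against 0.578, 0.595 and 0.569 in SAMPLE 2.

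Along the path from glycerol-3-phosphate to triacylglycerol no gene passed the rule. Glycerol-3-phosphate dehydrogenase GPD1, which supplies the backbone, had 0.541, 0.743 and 0.646 in SAMPLE 3, against 1.12, 0.914 and 0.943 in SAMPLE 2, a change of −0.63 ± 0.28 without overlap. GPD2 and GPD3 overlapped, at 0.11 ± 0.31 and 0.00 ± 0.25. Of the 10 assembly genes, 2 were lower and 2 higher without overlap, against 34.1% and 11.4% of the 44 genes. In this list 5 means were lower and 5 higher, and the median was −0.03. The acyltransferases of the first steps, GPAT, LPAT1 and LPAT2, overlapped, at −0.44 ± 0.47, −0.19 ± 0.29 and −0.07 ± 0.20.

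The lower genes of this path were PAP2 and DGAT2. The phosphatidic acid phosphatase PAP2, which releases diacylglycerol, had 0.648, 0.636 and 0.603 in SAMPLE 3, against 1.06, 1.10 and 0.885 in SAMPLE 2, at −0.68 ± 0.18. PAP3 was at 0.06 ± 0.39. Diacylglycerol acyltransferases add the last acyl chain, and the 5 genes named for it were of 3 kinds. DGAT2 had 0.819, 0.796 and 0.806 in SAMPLE 3, against 1.09, 1.07 and 1.03 in SAMPLE 2. Its −0.40 ± 0.04 was the change largest against its own error, at 9.04 propagated SDs. That size depended on the reference: after centring on the median target DGAT2 was at 0.02 ± 0.12, with overlap. DGAT3 had 0.591, 0.557 and 0.624 in SAMPLE 3, against 0.464, 0.478 and 0.482 in SAMPLE 2, and was higher at 0.31 ± 0.09. DGAT1 was higher as well without overlap, by a narrow gap, at 0.30 ± 0.24. DGAT4 and DGAT5 overlapped, at 0.01 ± 0.24 and 0.02 ± 0.29.

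The remaining higher genes belonged to nitrate and ADP-glucose metabolism. Nitrate reductase NR, which turns nitrate into nitrite, had 0.269, 0.267 and 0.324 in SAMPLE 3, against 0.183, 0.142 and 0.145 in SAMPLE 2. All repeats were apart, with means of 0.287 ± 0.0325 in SAMPLE 3 and 0.156 ± 0.0227 in SAMPLE 2 (SD, n = 3 each). The change of 0.88 ± 0.26, or 1.84-fold, was under the threshold. NR passed it with UFP alone at 1.44, with AT1 alone at 1.01, and without any reference at 1.16, as well as relative to the median target of each repeat at 1.29. NAR1, a nitrite transporter by its name, overlapped at −0.08 ± 0.19. AGPase1, a gene for the synthesis of ADP-glucose, had 0.574, 0.545 and 0.473 in SAMPLE 3, against 0.365, 0.425 and 0.352 in SAMPLE 2, at 0.48 ± 0.20. AGPase2 overlapped, at −0.06 ± 0.11.

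Where 1 enzyme was measured through several genes, the ratio of the genes within a repeat does not depend on the reference. Of 22 pairs in 9 families, 15 had ratios that did not overlap between SAMPLE 3 and SAMPLE 2, and 6 of these were also beyond 2 propagated SDs. None of the 22 reached 2-fold, and 10 of them were pairs of DGAT genes. The share without overlap among pairs of genes from different families was not counted, so the 15 are not read as a trait of families. VDE1 over VDE2 was 1.83, 1.53 and 1.43 in SAMPLE 3, against 0.966, 0.883 and 0.754 in SAMPLE 2, a change of 0.88 ± 0.26. Each gene has its own scale, so a ratio above or below 1 does not show which gene had more transcript. Every repeat of SAMPLE 4 and of continuous light also lay above SAMPLE 2 in this ratio. DGAT2 over DGAT3 was 1.39, 1.43 and 1.29 in SAMPLE 3, against 2.34, 2.24 and 2.14 in SAMPLE 2, at −0.71 ± 0.10.

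The other pairs beyond 2 propagated SDs were DGAT1 over DGAT2 at 0.69 ± 0.25, DGAT1 over DGAT5 at 0.28 ± 0.12, AGPase1 over AGPase2 at 0.54 ± 0.25 and PAP1 over PAP2 at 0.68 ± 0.14. The last sets PAP2 against a reference gene. KAR1 over KAR2 was 0.815, 0.997 and 0.575 in SAMPLE 3, against 1.29, 1.30 and 1.38 in SAMPLE 2. These did not overlap, but the spread in SAMPLE 3 left the change of −0.77 ± 0.41 within 2 propagated SDs. ENR1 over ENR2, LCS1 over LCS2 and DGAT1 over DGAT3 overlapped, with changes near 0, at −0.01 ± 0.15, −0.03 ± 0.10 and −0.02 ± 0.16. Pairs of a family share genes, so their number is not a number of separate changes.

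**Figure D3:**
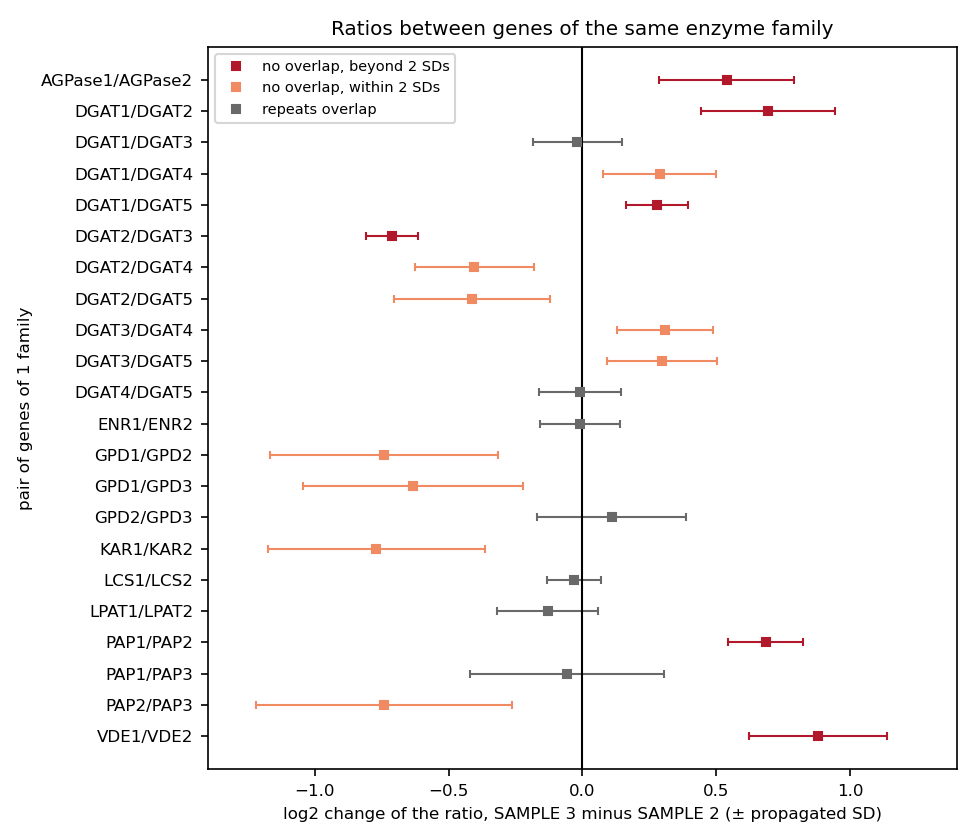
The plot gives the log2 change of the ratio between genes of the same family, SAMPLE 3 minus SAMPLE 2 (horizontal axis), with the propagated SD as bars, for 22 pairs. VDE1/VDE2 at 0.88 and DGAT2/DGAT3 at −0.71 are among the 6 pairs beyond 2 propagated SDs, and ENR1/ENR2 lies at −0.01.

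The levels of SAMPLE 4 and continuous light show where each of the compared columns stood. Of the 14 targets that were lower without overlap, SAMPLE 3 overlapped with continuous light in 14, as it did in 33 of all 36 targets. SAMPLE 2 lay above SAMPLE 3 in these 14 by their selection, and above SAMPLE 4 in 14. It lay above continuous light in 12 of them, the exceptions being ENR1 and KAR1, which overlapped. Over all 36 targets SAMPLE 2 lay above continuous light in 15. Its place above SAMPLE 4 was not particular to the 14, since GPAT, VDE1, ZE, LPAT1 and LPAT2 showed it too. VCP1 had 0.314, 0.238 and 0.312 in SAMPLE 4, against 0.298, 0.480 and 0.335 in continuous light. HAD had 0.507, 0.475 and 0.550 in SAMPLE 4, against 0.462, 0.544 and 0.532 in continuous light. Both columns were in the range of SAMPLE 3 or close to it for these genes. Against SAMPLE 4, SAMPLE 3 was above without overlap for POR1, PAP2, GPD1 and DGAT2, and below for MCT, KAR1, ENR1 and ENR2. Among the targets outside the 14, SAMPLE 3 was also above for LPAT1 and LPAT2, and below for KAS, GPD2, DGAT3, AGPase1 and NR.

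Among the 4 higher targets, SAMPLE 2 lay below every repeat of the other 3 columns in 4. For SAMPLE 3 this follows from their selection. Over all 36 targets SAMPLE 2 overlapped with continuous light in 15 and lay above it in 15. Beside the 4, it lay below continuous light for BC and PAP3, and below SAMPLE 4 for BC and GPD2. SAMPLE 3 itself was below continuous light without overlap for NR and DGAT3, and overlapped with it for AGPase1 and DGAT1. NR was at 0.327, 0.673 and 0.377 in SAMPLE 4, against 0.466, 0.563 and 0.968 in continuous light. DGAT3 was at 0.695, 0.673 and 0.744 in SAMPLE 4, against 0.749, 0.768 and 0.825 in continuous light. For NR and DGAT3, SAMPLE 3 therefore stood between SAMPLE 2 and each of these columns. Comparisons through a common column are not independent, and none of these orders was tested.

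The repeats of SAMPLE 3 spread more than those of SAMPLE 2. The median log2 SD of a target was 0.22 in SAMPLE 3 and 0.10 in SAMPLE 2 (n = 3 each). In SAMPLE 3, repeat 3 was the highest of the 3 repeats in 28 of 36 targets, at a median of 1.25 times the geometric mean of the others, and repeat 2 was the lowest in 26. Before normalization repeat 3 was the highest in 12 targets. In SAMPLE 2 no repeat was the highest in more than 15. Without repeat 3 of SAMPLE 3, POR1 joined the 4 lower genes at −1.15 and the median target was at −0.41. The antenna gene VCP1 then stood at −2.00 and the de-epoxidase gene VDE2 at −1.39, with HAD at −1.12 and MCT at −1.26. Without it the median of fatty acid synthesis was −0.50, that of chlorophyll and carotenoid synthesis −0.68 and that of glycerolipid assembly −0.16.

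The reference set the size of most changes and, for small ones, their direction. VCP1, VDE2, MCT, HAD, POR1, KAR1, PAP2, ENR1, GPD1, ENR2 and ALAD were lower under each of the 11 other references, and NR, AGPase1, DGAT3 and DGAT1 were higher under each. A reference shifts all genes by the same amount, so the most extreme, UFP and BT, decided this. The 11 are not separate checks. The size did not hold under all 11: with BT alone DGAT1 was at 0.00087 and DGAT3 at 0.019, and with UFP alone ALAD was at −0.039 and ENR2 at −0.067. Lower means of LCS2 turned under 1 of the 11, of DGAT2 under 2 and of LCYB under 3. After centring on the median target, 6 targets were lower without overlap, VCP1, VDE2, MCT, HAD, KAR1 and ALAD, each of which was so before, and 15 were higher, among them the 4 that were higher before. The calls of VDE2, MCT and HAD ended there, at −0.78 ± 0.25, −0.76 ± 0.17 and −0.60 ± 0.11, which are under 2-fold.

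**Figure D4:**
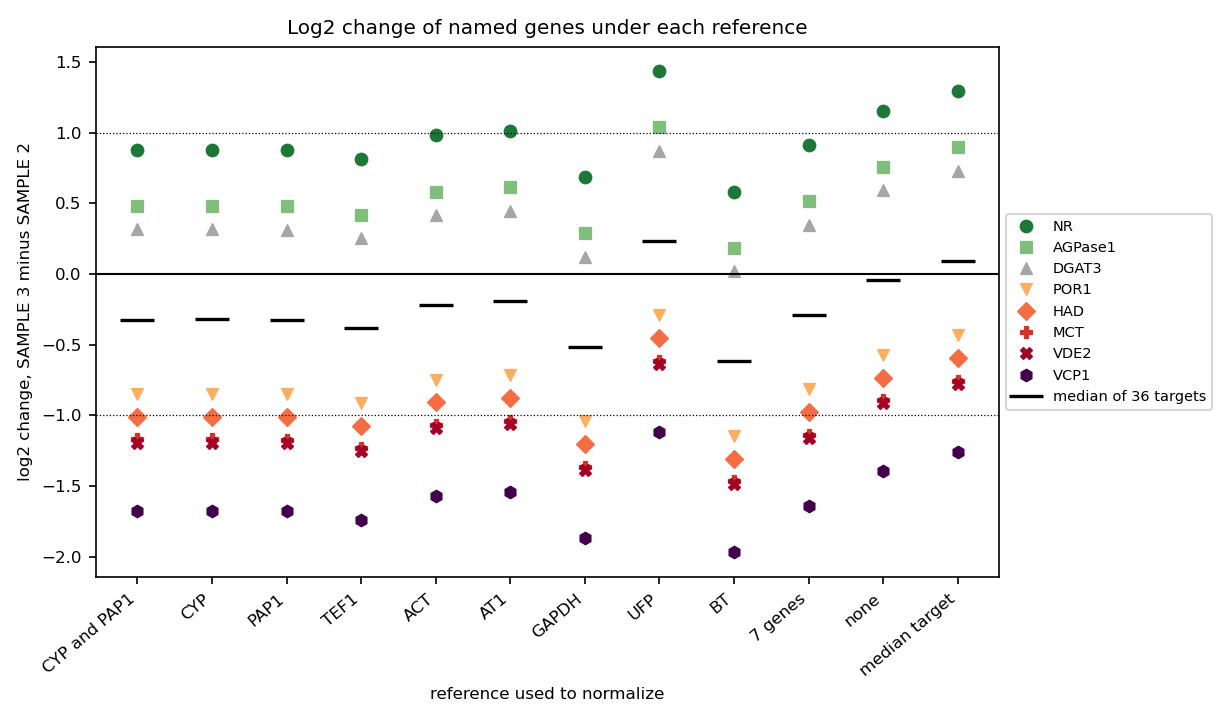
The plot gives the log2 change, SAMPLE 3 minus SAMPLE 2 (vertical axis), of 8 genes and of the median target (black dashes) under each reference (horizontal axis), with dotted lines at 2-fold. VCP1 is below the lower line throughout, the distances between genes stay as they are, and the median target runs from −0.62 with BT to 0.23 with UFP.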

How the data were processed

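Total RNA was measured by SYBR Green real-time PCR, per the labels. The authors deposited a table of linear ratios before normalization, relative to the highest value of each gene, the same ratios divided by housekeeping signal per the file headers, and fold changes of test over control. Threshold cycles were not used here, so depth and detection limits are unknown. The divisor was recomputed as the geometric mean of the CYP and PAP1 ratios per column and repeat, which gave the deposited normalized values of 43 genes within 0.1%. For MCT, the normalized row held that factor, and the ratio divided by the factor was used. Of the row identifiers, 4 are written otherwise before normalization, including a repeat of another row's identifier. Rows were joined by position. The sources used here give no instrument, software or efficiency method. Logarithms of the ratios fell on steps of 0.01 cycle at a gene-specific base of 1.91 to 2.17. The median base was 2.039, and 34 of the 44 genes had a base above 2, which is more than an exact doubling per cycle.

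Changes were computed in Python 3.11.15 with numpy 2.4.6 and pandas 2.3.3, and the calculation was tested on simulated data. Any gene could be named; per-repeat values were given for genes past the rule, for the 10 largest changes, for those beyond 2 propagated SDs and for others that a comparison needed. Genes are given by the symbols of the table, and its locus identifiers are not reported here. Lists follow the gene names in the table. Members and lists were chosen with earlier results of these data known. Spreads between repeats may be technical.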

Additional observations from a re-analysis of the deposited data

Results flagged for a closer look

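MCT of fatty acid synthesis lay on opposite sides of continuous light in the compared samples when repeats are matched by number. Its log2 difference from continuous light was −0.05, −0.34 and −0.73 in the repeats of SAMPLE 3, and 1.12, 0.99 and 0.28 in those of SAMPLE 2. The change between the samples was −1.17, and the difference in direction was not tested. Repeat numbers did not meet the condition for pairing, so the matching is only by name. Without it, SAMPLE 3 differed from continuous light by −0.37 ± 0.50, within the propagated SD, and overlapped with its 0.514, 0.510 and 0.884. SAMPLE 2 differed from continuous light by 0.80 ± 0.46. The values rest on the recomputed row of MCT.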

How the results depend on the processing

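In the 24 alternatives 1286 values were recomputed. Of these 1102 stayed within the propagated SD or, for counts, within 1.5 times, 182 moved further and 2 reversed a gene that had passed the rule. The 2 were MCT as deposited and MCT in the deposited fold table, both 0.28, which hold the normalization factor. Part of the 1102 could not have moved. A 1.5-fold or 3-fold threshold and an SD pooled over all columns leave each gene's change and each list median as they are. So do differences within a repeat number. Replacing the recomputed MCT values by the authors' own alters no other gene. Of 1216 signed values, whether past the rule or not, 102 changed sign, 74 of them values of single genes. Leaving out repeat 3 of SAMPLE 3 was chosen after seeing the data. The 4 lower genes by the rule became 1 with UFP or BT alone, with no reference, after centring or at 3-fold, and 10 at 1.5-fold. The 0 higher genes became 1 (NR) with UFP or AT1 alone, with no reference, after centring and at 1.5-fold. With 1 repeat left out of both samples the counts ran from 3 to 5 lower and 0 to 1 higher, where NR passed without repeat 1, HAD was lost without repeat 2 and POR1 was gained without repeat 3. The median target change was 0.23 with UFP, −0.19 with AT1, −0.62 with BT, −0.52 with GAPDH, −0.0448 with no reference and 0.092 after centring. The 14 lower targets without overlap became 22 with TEF1, 3 with UFP or BT, 9 with ACT or AT1 and 6 with no reference or after centring. The 4 higher became 15 with UFP or after centring, 0 with BT and 2 with GAPDH. Among list medians 19 of 240 changed sign. Causes other than the construction of a setting were not tested. Repeat numbers did not meet the condition for pairing (correlations of deviations of 0.16, 0.086 and 0.35 over 36 targets), and differences within a repeat number, the replicate block, gave 4 lower genes.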
